A study of Saccharomyces cerevisiae with 8 samples.

Results

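The genes described here are 10 regulators through which budding yeast switches from glucose to non-fermentable carbon sources: SNF1, SNF4, MIG1, ADR1, CAT8, SIP4, HAP4, HAP2, OAF1 and PIP2. They were taken by gene name, and each of the 10 was found once among the 6668 genes listed for every library. Saccharomyces cerevisiae of the W303 background was profiled as a strain lacking MSP1 (msp1 deletion), a strain lacking PEX19 (pex19 deletion), a strain lacking both (double deletion), and wild type. Each genotype had 1 library of ribosome-protected fragments (RPF, the mRNA stretches that translating ribosomes shield from nuclease) and 1 RNA-seq library, 8 libraries in all. The carbon source of all 4 strains was 2% glycerol and 2% ethanol, in synthetic complete medium. Every value below thus comes from cells on non-fermentable carbon, and no glucose-grown culture was analysed. MSP1 encodes an ATPase of the outer mitochondrial membrane that pulls out misplaced tail-anchored proteins. PEX19 encodes the carrier that brings newly made membrane proteins to peroxisomes. The study's title asks about mitochondrial dysfunction in Zellweger spectrum disorder, in which peroxisomes fail to form.

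The Snf1 kinase is the yeast AMP-activated protein kinase. Without glucose it phosphorylates the repressor Mig1, which then leaves the nucleus, and it activates Adr1, Cat8 and Sip4, which turn on genes of ethanol use, gluconeogenesis and the glyoxylate cycle. The Hap2/3/4/5 complex, whose activating subunit Hap4 is made on respiratory carbon sources, drives genes of the respiratory chain, and the pair Oaf1 and Pip2 drives genes of peroxisomes and fatty acid oxidation. These proteins act in a chain, since CAT8 and HAP4 are themselves described as repressed by glucose, SIP4 as a target of Cat8, and PIP2 as a target of Oaf1 and Pip2.

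Stretches upstream of 4 of the regulators are printed first because they show the letters through which such a chain is described to run. Windows of 500 bases before each start codon were searched on both strands of the R64 (sacCer3) reference, which comes from strain S288C and not from W303. Mig1-type letters (CCGGGG, or CTGGGG, or GCGGGG, or GTGGGG) were present in 22.73% of 5992 such windows and in those of 4 members, CAT8, HAP4, MIG1 and OAF1. The oleate-type spacing of CGG and CCG, 15 to 18 bases apart, was present in 8.828% of windows and in those of 2 members, PIP2 and OAF1. Both OAF1 matches, and 3 of the 4 Mig1-type matches of MIG1, lay inside a neighbouring gene and are not shown. Capitals mark the matched letters, and for PIP2 the whole element from CGG to CCG.
CAT8, chrXIII:831535-831564, minus strand: agcgGCGGGGctgatattttGTGGGGtacg
HAP4, chrXI:231947-231976, plus strand: cacctctctaaaCCCCAGttttatatcgta
MIG1, chrVII:433183-433212, minus strand: ccttttttttcaCCCCAGtactcattaacg
PIP2, chrXV:1023343-1023372, minus strand: atctCGGAACTAAATATAATCTCCGgagta

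CAT8 held 2 Mig1-type matches within 1 stretch, the first 231 and the second 215 bases before its start codon. In HAP4 and MIG1 the letters stood on the opposite strand (CTGGGG read as CCCCAG), 268 and 138 bases before the start. The PIP2 element ran from 156 to 136 bases before the start. CCAAT, the letters named for the Hap complex, were present in 62.45% of windows and in those of 6 members, too common a string to mark any of them out. A match of letters is a description of the reference and was not related to the measured levels.

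All 10 genes have 1 coding exon, and in the annotation none overlaps another gene or has a near-identical copy elsewhere in the genome. Copies were sought over at least 100 nt, longer than the sequenced fragments, so reads shared through shorter stretches were not assessed. They are long genes: 8 of the 10 are longer than 1305 nt, the median coding length of genes past the count minimum, and the median member has 2196 nt. The library labels held, since MSP1 and PEX19 were each listed at 1 read, the lowest value in the files, wherever they were labelled as deleted, and at 104 to 731 reads elsewhere. RPF libraries held 1101458 (msp1 deletion) to 2300792 reads, and RNA-seq libraries 4694951 (pex19 deletion) to 5367091. The pex19 RNA-seq library listed 783 genes at 1 read, against 511 to 528 in the other RNA-seq libraries. Its part in the low RNA values of that strain was not tested. A mean of at least 50 reads over the 4 libraries of an assay was reached by 3738 genes in RPF and 5290 in RNA-seq, among them 9 and 10 of the members. PIP2, with a mean of 45.25 RPF reads, was the member that did not pass in RPF. Genotypes have 1 library in each assay and hence no replicates, so differences were not tested. Intervals in brackets are exact 95% counting intervals and cover counting error only.

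HAP4 was by far the most abundant of the 10 messages in wild-type cells, and the peroxisomal pair was the least. Levels between genes are compared in TPM, which divides by gene length. In wild-type RNA-seq HAP4 stood at 507 TPM, followed by ADR1 at 169.7, SNF4 at 157 and SNF1 at 127. SIP4 and CAT8 were level at 92.3 and 92.1 TPM, HAP2 and MIG1 at 54.2 and 53.1, and OAF1 and PIP2 at 34.6 and 31.4. Neighbours within each of these 3 pairs, and ADR1 and SNF4, had overlapping counting intervals, while all other neighbours in the order did not. HAP4 ranked higher than 93.9% of measured genes and PIP2 higher than 21.6%.

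The order by ribosome-protected fragments was not the same. Wild-type RPF levels were 236 TPM for HAP4, 92.3 for SNF1 and 79.8 for SNF4, then 55.9 for HAP2, 51.6 for ADR1 and 44.1 for MIG1. CAT8 followed at 25.5 TPM, OAF1 at 12.5, SIP4 at 5.85 and PIP2 at 5.43. SNF1 and SNF4 overlapped in their intervals, as did HAP2 with ADR1, ADR1 with MIG1, and SIP4 with PIP2. SIP4 ranked 9 of the 10 by RPF and 5 by RNA, and ADR1 ranked 5 by RPF and 2 by RNA. HAP4 was first in both assays of all 4 genotypes.

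**Figure D1:**
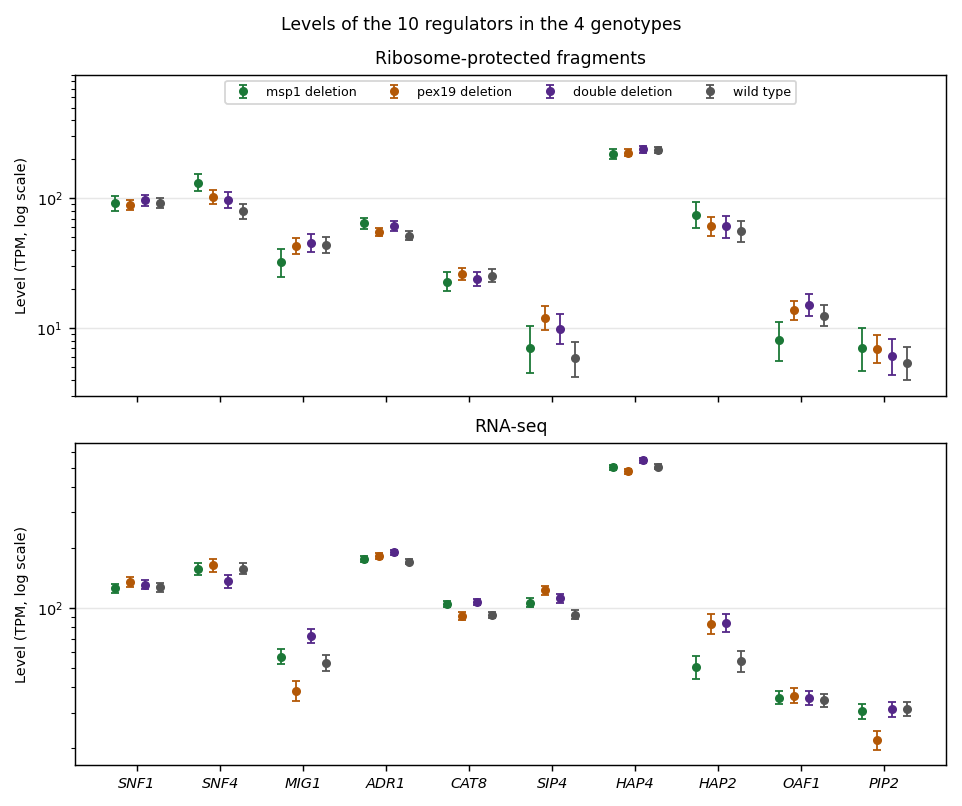
Level of each regulator in TPM on a log scale, RPF in the upper and RNA-seq in the lower panel, with 1 point per library (green msp1 deletion, orange pex19 deletion, purple double deletion, grey wild type) and bars for the 95% counting interval. HAP4 lies above all others in both panels, SIP4 drops to the level of PIP2 in the RPF panel, and the genotypes are farthest apart for MIG1 and HAP2 in RNA-seq and for SIP4, OAF1 and SNF4 in RPF.

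Across genotypes the 10 regulators moved little, and no member was 2-fold different from wild type in any library. Each deletion was compared with wild type as the log2 ratio of reads scaled to a common library size, and a gene was counted as different from 1.5-fold, a log2 ratio of 0.585, onwards. In the msp1 deletion 0 members were higher and 2 lower in RPF, against 10.1% and 8.19% of all genes measured, and 0 were higher or lower in RNA-seq, against 2.34% and 2.1%. In the pex19 deletion 1 was higher and 0 lower in RPF, against 2.92% and 1.87% of all genes, and 0 were higher and 1 lower in RNA-seq, against 5.9% and 9.13%. In the double deletion 1 was higher and 0 lower in RPF, against 1.79% and 1.34%, and 0 were higher or lower in RNA-seq, against 2.72% in each direction. The member higher in RPF of the pex19 and double deletions was SIP4, whose mean reached 50 reads only through the pex19 library, and PIP2, below that mean in RPF, was counted among the 10. With 10 members, counts of 0 to 2 are near these backgrounds and single out no genotype. The median member differed from wild type by between −0.035 and 0.13 on the log2 scale over the 6 comparisons, with medians of all genes between 0 and 0.015. In a bulk culture, fewer cells that carry a message and less of it per cell cannot be told apart.

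**Figure D2:**
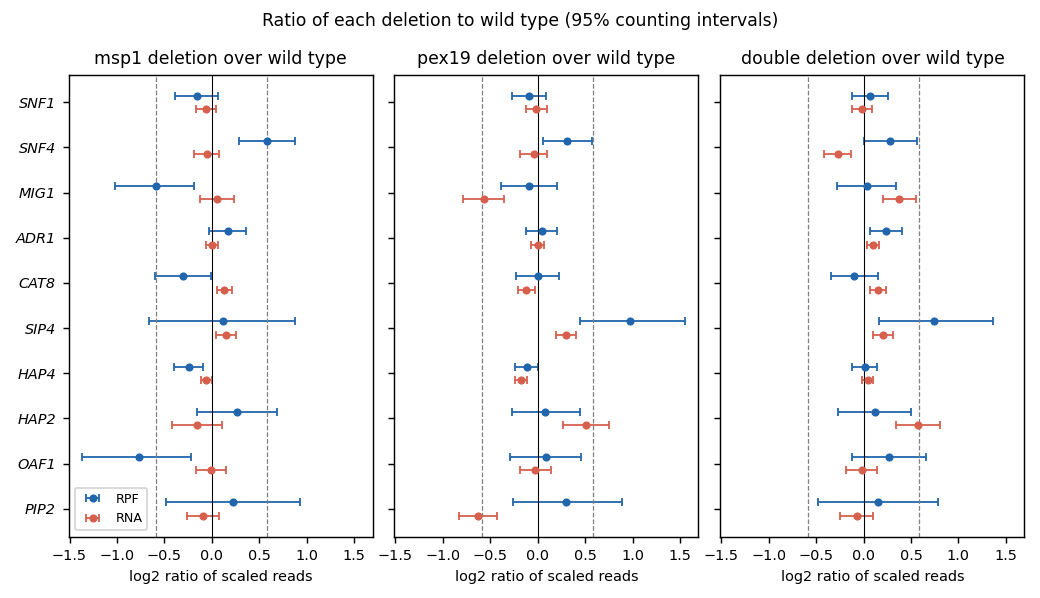
Log2 ratio of scaled reads, each deletion over wild type, for the 10 regulators (blue RPF, red RNA-seq), with 95% counting intervals and dashed lines at 1.5-fold. Most points lie between the dashed lines, and the ones beyond them are OAF1 and MIG1 in RPF of the msp1 deletion, SIP4 in RPF of the pex19 and double deletions, and PIP2 in RNA-seq of the pex19 deletion.

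SNF1, the catalytic subunit of the kinase, varied little. Its scaled RPF reads were 371 in the msp1 deletion, 387 in the pex19 deletion and 432 in the double deletion, against 413 in wild type. Its scaled RNA-seq reads were 1335, 1382 and 1379 in the same deletions, against 1396 in wild type. No interval of its ratio to wild type excluded 0 in either assay of any deletion.

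SNF4 encodes the regulatory gamma subunit, which binds adenine nucleotides and relieves autoinhibition of Snf1. It had 266 scaled RPF reads in the msp1 deletion, 220.2 in the pex19 deletion and 216 in the double deletion, against 177.5 in wild type. All 3 deletions thus lay above wild type, by log2 ratios of 0.58 (0.28 to 0.88), 0.31 (0.05 to 0.57) and 0.28 (0.003 to 0.56), the first just short of 1.5-fold. The comparisons share the wild-type library, whose value of 216 raw reads enters all of them. Scaled RNA-seq reads were 825, 833 and 710.0 in the deletions in the same order, against 858 in wild type. In RNA the double deletion alone had an interval off 0, at −0.27 (−0.42 to −0.13), in the opposite direction to its RPF.

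The ratio of SNF4 to SNF1 within a library does not depend on how libraries are scaled against each other. By RPF in TPM it was 1.45 (1.18 to 1.77) in the msp1 deletion, 1.15 (0.99 to 1.33) in the pex19 deletion and 1.01 (0.85 to 1.19) in the double deletion, against 0.865 (0.73 to 1.02) in wild type. By RNA it was 1.246, 1.21 and 1.04 in the deletions in the same order, against 1.24 in wild type. The RPF ratios in the msp1 and pex19 deletions lay above the wild-type interval, that of the pex19 deletion with an interval overlapping it, and the RNA ratio in the double deletion lay below it. This pair and the others below were chosen after their values had been seen.

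MIG1 encodes the zinc finger repressor of glucose-repressed genes, whose position in the cell Snf1 controls. Its scaled RNA-seq reads spanned the widest range of the 9 members measured in both assays, with 482 in the msp1 deletion, 312 in the pex19 deletion and 601.5 in the double deletion, against 463 in wild type. The pex19 deletion was the lowest and the double deletion the highest. Log2 ratios to wild type were 0.06 (−0.12 to 0.24), −0.57 (−0.78 to −0.36) and 0.38 (0.20 to 0.55), and the pex19 value was just short of 1.5-fold. Between the double and the pex19 deletion the RNA differed by 0.94 (0.74 to 1.16). The pex19 RNA-seq library also had the most genes called lower than wild type of the 3, and its part in the MIG1 value was not tested.

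Ribosome-protected fragments of MIG1 did not follow that pattern. Scaled RPF reads were 103 in the msp1 deletion, 147 in the pex19 deletion and 159.7 in the double deletion, against 156 in wild type. The msp1 deletion was the low one here, at −0.59 (−1.02 to −0.19) with 66 raw reads. It was short of 1.5-fold with library totals (−0.567), a pseudocount of 5 reads (−0.572) or the deposited TPM (−0.451). The pex19 and double deletions differed from wild type by −0.09 (−0.39 to 0.20) and 0.03 (−0.28 to 0.35), and from each other by 0.12 (−0.19 to 0.44), although their RNA levels were 1.92-fold apart. MIG1 was thus low in RPF in the msp1 deletion and in RNA in the pex19 deletion, and in neither in both.

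ADR1 encodes the zinc finger activator of alcohol, glycerol and fatty acid use. It had 551 scaled RPF reads in the msp1 deletion, 504 in the pex19 deletion and 578.5 in the double deletion, against 489.9 in wild type. Its RNA-seq reads, scaled, were 3961, 3960.0 and 4237 in these deletions, against 3965 in wild type. Both single deletions were within 0.002 of wild type in RNA on the log2 scale. The double deletion exceeded wild type by 0.24 (0.07 to 0.41) in RPF and 0.10 (0.03 to 0.16) in RNA-seq, and in RPF it differed from the msp1 deletion by 0.07 (−0.12 to 0.27).

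CAT8, a zinc cluster activator of gluconeogenic genes, differed slightly. Its scaled RPF reads were 213 in the msp1 deletion, 262 in the pex19 deletion and 245 in the double deletion, against 262.2 in wild type. Its scaled RNA-seq reads were 2557, 2147 and 2592 in these deletions, against 2332 in wild type. CAT8 RPF had a log2 ratio of −0.30 (−0.60 to −0.007) in the msp1 deletion while its RNA was at 0.13 (0.05 to 0.21). Its RNA in the pex19 deletion was at −0.12 (−0.21 to −0.03), and at −0.017 with the deposited TPM.

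SIP4 encodes the related zinc cluster protein that binds the same carbon source-responsive elements as Cat8 and is bound by the Snf1 complex. It was the member with the fewest scaled RPF reads in wild type and the one whose RPF differed most from it. Raw RPF reads were 24 in the msp1 deletion, 90 in the pex19 deletion and 57 in the double deletion, against 42 in wild type, and scaled RPF reads were 37.6, 68.4 and 58.4, against 34.5. The 2 strains without PEX19 were the high ones. They exceeded wild type by 0.97 (0.44 to 1.55) and 0.74 (0.16 to 1.37), while the msp1 deletion differed by 0.12 (−0.67 to 0.88). These ratios share the wild-type value of 42 raw reads. The mean of SIP4 reached 50 RPF reads only through the pex19 library, where it was highest. Between the double and the msp1 deletion the interval of the RPF ratio spans 0. Scaled RNA-seq reads were 1492, 1653 and 1550.0 in the deletions in the same order, against 1341 in wild type. All 3 deletions were above wild type in RNA, by 0.15 (0.05 to 0.26), 0.30 (0.20 to 0.41) and 0.21 (0.10 to 0.31).

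The balance of CAT8 to SIP4 within a library shifted with these values. By RPF in TPM it was 3.25 (2.10 to 5.25) in the msp1 deletion, 2.2 (1.74 to 2.81) in the pex19 deletion and 2.41 (1.796 to 3.27) in the double deletion, against 4.36 (3.15 to 6.17) in wild type. By RNA it was 0.98, 0.75 (0.70 to 0.80) and 0.96 in these deletions, against 1.00 (0.93 to 1.07) in wild type. The pex19 deletion had the lowest CAT8 to SIP4 ratio in both assays, and its intervals did not overlap those of wild type.

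HAP4 encodes the activation subunit of the Hap complex. It had 779 scaled RPF reads in the msp1 deletion, 850.5 in the pex19 deletion and 929 in the double deletion, against 922 in wild type. Its scaled RNA-seq reads were 4687, 4308 and 5026 in these deletions, against 4875 in wild type. The largest departures were −0.24 (−0.40 to −0.09) for RPF in the msp1 deletion and −0.18 (−0.24 to −0.12) for RNA in the pex19 deletion. When TMM took in every listed gene, the median RPF ratio of all genes in the msp1 deletion became −0.185, against 0.015, and HAP4 RPF there became −0.44. Relative to those medians the HAP4 value was nearly the same.

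HAP2, a subunit that contacts the CCAAT letters, had more RNA in both strains without PEX19. Scaled RNA-seq reads were 217 in the msp1 deletion, 344 in the pex19 deletion and 359 in the double deletion, against 241 in wild type. The pex19 and double deletions were higher by 0.51 (0.27 to 0.76) and 0.57 (0.34 to 0.81), both just short of 1.5-fold, and the msp1 deletion differed by −0.15 (−0.41 to 0.11). Scaled RPF reads were 122 in the msp1 deletion, 107 in the pex19 deletion and 109.6 in the double deletion, against 101 in wild type, and no interval of the ratio excluded 0. The RNA ratio of HAP4 to HAP2 in TPM was 9.99 (8.74 to 11.5) in the msp1 deletion, 5.8 (5.17 to 6.52) in the pex19 deletion and 6.48 (5.82 to 7.24) in the double deletion, against 9.35 (8.25 to 10.6) in wild type. By RPF it was 2.96, 3.68 and 3.93 in these deletions, against 4.23 in wild type, with intervals that overlapped.

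OAF1 encodes the oleate-binding zinc cluster partner of the peroxisomal pair. Its RNA was flat, with 635, 626 and 628 scaled RNA-seq reads in the 3 deletions, msp1, pex19 and double in turn, against 637.5 in wild type. Its scaled RPF reads were 54.8 in the msp1 deletion, 99.5 in the pex19 deletion and 113 in the double deletion, against 93.7 in wild type. The msp1 deletion was the low one, at −0.76 (−1.36 to −0.22) with 35 raw reads, and the double deletion exceeded it by 1.02 (0.48 to 1.63). The msp1 RPF library was the shallowest of the 8, and its ratios to wild type moved with gene length across genes (Spearman 0.312 over genes, a description). With that trend removed the OAF1 ratio was −0.831, and the part of depth was not tested.

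PIP2 encodes the partner of Oaf1 whose own gene is induced by oleate. Its scaled RNA-seq reads were 515.5 in the msp1 deletion, 355 in the pex19 deletion and 523 in the double deletion, against 549.9 in wild type. The pex19 deletion was the low one, at −0.63 (−0.83 to −0.43), and the double deletion exceeded it by 0.56 (0.36 to 0.76). The pex19 RNA-seq library listed more genes at 1 read than the other RNA-seq libraries, and its part in the PIP2 value was not tested. The pex19 value was no longer past 1.5-fold with the length trend removed (−0.579) or with the deposited TPM (−0.528). Raw RPF reads were 29 in the msp1 deletion, 63 in the pex19 deletion and 42 in the double deletion, against 47 in wild type. The pex19 RPF ratio was 0.30 (−0.26 to 0.89), an interval that spans 0 and lies above the RNA ratio. The RNA ratio of OAF1 to PIP2 in TPM was 1.17 in the msp1 deletion, 1.67 (1.46 to 1.93) in the pex19 deletion and 1.14 in the double deletion, against 1.10 (0.99 to 1.23) in wild type. The RPF ratio was 1.15 (0.68 to 1.95), 1.98 and 2.49 in these deletions, against 2.31 (1.63 to 3.31) in wild type.

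**Figure D3:**
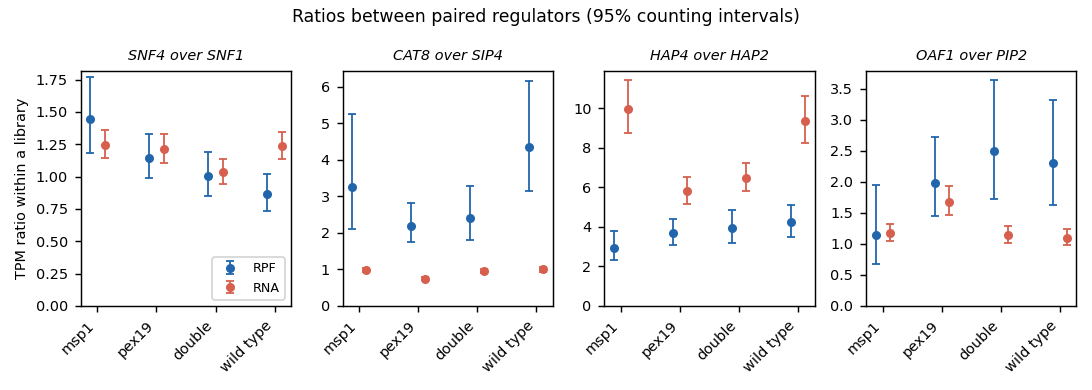
TPM ratio of 4 pairs of regulators within each library (blue RPF, red RNA-seq), with 95% counting intervals and axes from 0. SNF4 over SNF1 by RPF is highest in the msp1 deletion (1.45), CAT8 over SIP4 by RNA is lowest in the pex19 deletion (0.75), HAP4 over HAP2 by RNA is lower in both strains without PEX19 (5.8 and 6.48), and OAF1 over PIP2 by RNA is highest in the pex19 deletion (1.67).

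Translational efficiency, the RPF TPM divided by the RNA-seq TPM of the same genotype, set SIP4 apart from the other regulators and from nearly all genes. SIP4 had a translational efficiency of 0.066 (0.042 to 0.099) in the msp1 deletion, 0.098 (0.078 to 0.12) in the pex19 deletion and 0.089 (0.067 to 0.12) in the double deletion, against 0.063 (0.045 to 0.086) in wild type. The median of the 3737 genes past the minimum in both assays was 0.748, 0.664 and 0.669 in these deletions, against 0.675 in wild type. Counted from the lowest of these genes, SIP4 ranked 4, 21 and 25 in the deletions, and 12 in wild type. The minimum itself removes genes with few RPF reads, among which low efficiencies are found, and SIP4 passed it, with a mean of 53.25 RPF reads, only through the 90 reads of the pex19 deletion. Its ranks are thus a description among genes that passed.

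Long genes had low translational efficiency in all 4 genotypes, with Spearman coefficients between efficiency and coding length from −0.756 to −0.694 over 3735 genes, as a description. The members are long, and 8 of 10 in the msp1 deletion and 7 of 10 in each other genotype were below the median of all genes. Against the efficiency fitted for its length, SIP4 had 0.15-fold, 0.25-fold and 0.25-fold in the msp1, pex19 and double deletions, and 0.17-fold in wild type. Its rank from the lowest was then 4, 15 and 16 in the deletions, and 5 in wild type. Length fitted this way left CAT8, ADR1 and OAF1 near or above the trend in wild type (1.34-fold, 1.34-fold and 1.23-fold), although their measured efficiencies of 0.277, 0.304 and 0.362 were low. PIP2, below the count minimum, was at 0.173 and 0.556-fold of the trend in wild type. This comparison with the length trend was added after the data had been seen.

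**Figure D4:**
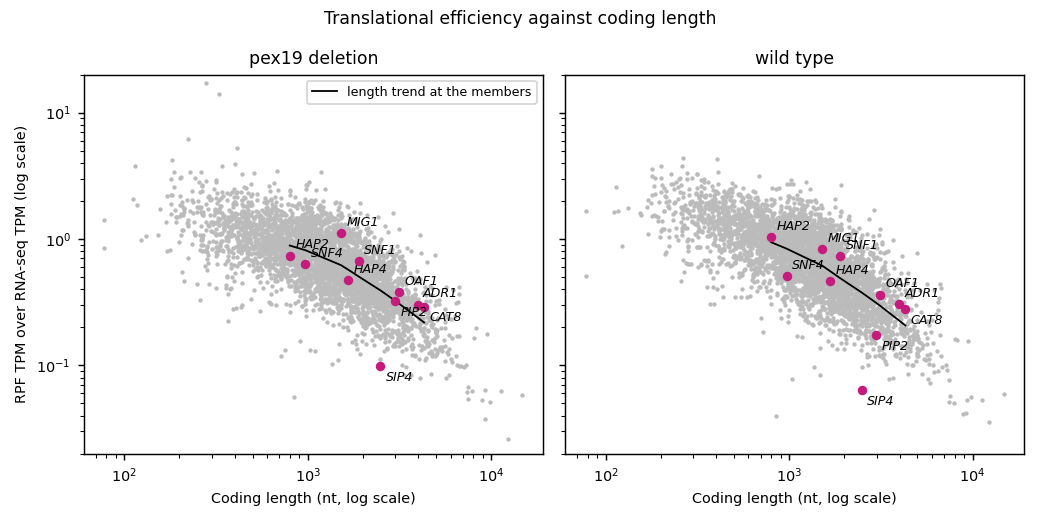
Translational efficiency (RPF TPM over RNA-seq TPM, log scale) against coding length in nt (log scale) in the pex19 deletion and in wild type, with 1 grey point per gene, the 10 regulators in pink, and a line through the fitted trend at the members' lengths. SIP4 lies far below the line in both panels (0.25-fold and 0.17-fold of it), and the other 9 regulators lie within about the cloud of genes of their length.

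The letters around the start codon are shown for the lowest member by translational efficiency and for 3 others. Lines show SIP4, CAT8 with an equal wild-type RNA level, the short gene HAP2, and SNF1, in the R64 reference. ATG is in capitals, with 12 bases before it.
SIP4, chrX:265914-265933, plus strand: tctgaatagacgATGgccaa
CAT8, chrXIII:831322-831341, minus strand: agacacaaaattATGgcaaa
HAP2, chrVII:53521-53540, minus strand: aacaagaacgccATGtcagc
SNF1, chrIV:1412361-1412380, plus strand: aataaagtcaacATGagcag

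SIP4 and CAT8 both had A at the third base before ATG, as did 7 of the 10 members and 60.87% of 5990 genes, and the other 3 members, HAP2 among them, had G, as did 19.25% of genes. SIP4 had no ATG in the 150 bases before its start codon, where 71.76% of genes had at least 1. Among the members HAP4, HAP2, OAF1 and PIP2 had one. CAT8, ADR1, SNF1, SNF4 and MIG1 likewise had none. These letters thus did not distinguish SIP4 from the other members, and how far its RNA reaches upstream is not known from these files.

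Changes in translational efficiency against wild type, taken as the RPF ratio over the RNA ratio, were past 1.5-fold for few members. SNF4 in the msp1 deletion was at 0.64 (0.32 to 0.96), OAF1 at −0.76 (−1.32 to −0.19) and MIG1 at −0.65 (−1.09 to −0.21), where 10.5% of all genes were higher and 7.95% lower. PIP2 in the pex19 deletion was higher by 0.93 (0.35 to 1.51) and SIP4 by 0.67 (0.13 to 1.21), against 8.35% of genes higher and 6.69% lower, and PIP2 did not pass the minimum that those shares rest on. In the double deletion 0 members passed, against 4.15% and 2.78% of genes, with SNF4 at 0.55 (0.25 to 0.86) and SIP4 at 0.53 (−0.05 to 1.12). HAP2 spanned a wide range, with an efficiency of 1.48 in the msp1 deletion, 0.739 in the pex19 deletion and 0.723 in the double deletion, against 1.03 in wild type.

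The double deletion was also set against each single deletion, which gives the loss of one gene where the other is already missing. These comparisons share libraries with those above. Against the pex19 deletion, the 5th to 95th percentiles of all genes were −0.654 to 0.86 in RNA-seq and −0.472 to 0.487 in RPF. Against the msp1 deletion they were −0.48 to 0.472 in RNA-seq and −0.749 to 0.712 in RPF. Loss of MSP1 from the pex19 deletion came with more MIG1 RNA (0.94) and PIP2 RNA (0.56), and smaller differences of CAT8 (0.27, 0.19 to 0.36), HAP4 (0.22, 0.16 to 0.28) and SNF4 (−0.23, −0.38 to −0.08). In RPF all members lay between −0.23 and 0.20 in that comparison. Loss of PEX19 from the msp1 deletion came with more HAP2 RNA, by 0.72 (0.48 to 0.97), and MIG1 RNA, by 0.32 (0.15 to 0.49), and with more RPF of OAF1 (1.02) and MIG1 (0.62, 0.20 to 1.07). SIP4 RPF was higher by 0.62 there, with an interval from −0.07 to 1.39 on 57 and 24 raw reads. HAP2 RNA was the member that differed in the same direction on loss of PEX19 in both backgrounds with both intervals off 0 and a size above 0.5. Against the percentiles of all genes, MIG1 RNA on loss of MSP1, and HAP2 RNA and OAF1 RPF on loss of PEX19, lay outside. The other member values in these comparisons lay inside. The parts of the pex19 RNA-seq library and of the shallow msp1 RPF library were not tested.

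For the 3 members with the widest RNA range among the 9 that passed the minimum in both assays, which leaves out PIP2, the genes nearest in pattern over all 8 libraries were sought among 3736 genes, by the root mean square difference of log2 values centred within each assay. MIG1 was nearest to GAL83 (0.052), ISC1 (0.086) and PUF2 (0.094), against a median distance of 0.346 over all genes. GAL83 had RPF ratios to wild type of −0.48 (−0.86 to −0.12), 0.03 and 0.17, and RNA ratios of 0.11, −0.50 (−0.71 to −0.29) and 0.33 (0.15 to 0.50), with the deletions in the order msp1, pex19, double. HAP2 was nearest to VAM6 (0.077), SHE3 (0.087) and TAE1 (0.092), with a median distance of 0.288. SIP4 was nearest to TPO4 (0.097), SAM35 (0.125) and PKH3 (0.141), with a median distance of 0.341. Genes share the 8 libraries, so a short distance describes these libraries. The nearest genes were picked by these same values, so their distances lie below the median by selection.

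Partners and other regulators of the pathway were described from lists of genes known to belong there. Of 10 partners and upstream regulators of Snf1, 9 passed the minimum in RPF and 10 in RNA-seq, and their median ratios to wild type lay between −0.099 and 0.175 over the 6 comparisons. In RPF of the msp1 deletion 2 of 9 were higher, against 10.1% of all genes. One was SIP1 (0.75, 0.25 to 1.265), a beta subunit of the kinase, with 64 raw reads against 72 in wild type. The other was REG2 (0.61, −0.002 to 1.235), a regulatory subunit of protein phosphatase 1, with 42 against 52 and an interval that spans 0. The part of the length trend of that library in these values was not tested. SAK1, an activating kinase of Snf1, was lower in RPF of the pex19 deletion (−0.63), and TOS3, another such kinase, was lower in its RNA-seq (−1.93). These single genes stand against 1.87% and 9.13% of all genes lower. All 4 were named after their values were seen. Of the 3 most abundant of the list, REG1 and GLC7, which together dephosphorylate Snf1, lay between −0.12 and 0.28 in the 6 comparisons, and HXK2, the hexokinase that takes part in glucose repression, was −0.32 in RPF and −0.49 in RNA-seq of the pex19 deletion.

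Of 15 other transcription factors and co-repressors, 11 passed in RPF and 13 in RNA-seq, with medians between −0.14 and 0.27 over the 6 comparisons. In RPF of the msp1 deletion 2 were higher and 1 lower, against 10.1% and 8.19% of all genes, and in its RNA-seq 1 was higher, against 2.34%. The higher ones in RPF were RSF2 (0.65) and TUP1 (0.63, 0.42 to 0.84), which with CYC8 (0.47) forms the general co-repressor that Mig1 recruits. The lower one was HAP5 (−0.92), a subunit of the Hap complex, and the one higher in RNA-seq NRG2 (0.73), a relative of NRG1. NRG1 itself, a repressor of glucose-repressed genes, was higher in RPF of the pex19 deletion (0.60), where 3 genes, HAP5 (−0.81), NRG2 (−1.14) and USV1 (−0.72), were lower in RNA-seq. The double deletion had 1 higher in RNA-seq, ERT1 (0.78), and 0 past 1.5-fold in RPF. Shares of all genes were 2.92% higher in pex19 RPF, 9.13% lower in pex19 RNA-seq and 2.72% higher in double RNA-seq. RSF2, HAP5, NRG2, USV1 and ERT1 were named after their values were seen.

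Genes described as targets of the regulators were listed as well, and these lists overlap, with 2 genes of the 10 Adr1 targets also among the 10 Cat8 and Sip4 targets and 4 also among the 13 Oaf1 and Pip2 targets. The 10 Adr1 targets had median log2 ratios of 0.36 in RPF and 0.23 in RNA-seq of the msp1 deletion, where FOX2 and POT1 were higher and ADY2 (−0.86), an acetate transporter, lower in RPF, and POT1 was higher in RNA-seq, against 10.1%, 8.19% and 2.34% of all genes. Their medians in the pex19 deletion were 0.03 and −0.02, with ADH2 (0.73), the alcohol dehydrogenase of ethanol use, higher and POT1 lower in RNA-seq, against 5.9% and 9.13% of all genes, and 0 past 1.5-fold in RPF. For the double deletion they were 0.39 and 0.44, and 9 of 10 were above 0 in each assay. The 2 past 1.5-fold there, against 1.79% of all genes higher in RPF and 2.72% in RNA-seq, were FOX2 (0.78 and 0.62), the multifunctional enzyme of fatty acid oxidation, and CTA1 (0.70 and 0.89), the peroxisomal catalase, and all 5 of these genes were named after their values were seen. The 3 most abundant genes of the list were near 0: GUT1 (−0.10 in RPF and −0.06 in RNA-seq) and GUT2 (0.003 and 0.05) of glycerol use, and ALD4 (0.05 and 0.04), the mitochondrial aldehyde dehydrogenase, were within 0.10 of wild type there. GUT2 was at 0.52 in RPF of the msp1 deletion, with 0.17 in RNA-seq. The part of the length trend of that RPF library in single values of this list was not tested.

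The 10 Cat8 and Sip4 targets had medians of 0.23 in RPF and 0.08 in RNA-seq of the pex19 deletion, the strain with the highest SIP4, with 2 higher in each assay, against 2.92% and 5.9% of all genes. ICL1, isocitrate lyase of the glyoxylate cycle, was one of them, at 1.00 (0.93 to 1.07) in RPF and 1.02 (0.97 to 1.07) in RNA-seq. The other was MDH2 (0.92 and 0.68), the cytosolic malate dehydrogenase, named after its values were seen. JEN1, the lactate and pyruvate permease, was 0.28 and 0.10 there, and IDP2, the cytosolic isocitrate dehydrogenase, −0.02 and 0.05. In that strain 7 of 10 targets were above 0 in RPF and 6 of 10 in RNA-seq. PCK1, named after its values were seen, lay below 0 in both, at −0.20 (−0.28 to −0.11) and −0.39 (−0.47 to −0.31). Medians were 0.03 in both assays of the msp1 deletion, of which the RPF value became −0.17 when TMM took in every listed gene, as the median of all genes moved to −0.185. MLS1 (0.59), malate synthase, was higher and ADY2 lower in RPF there, against 10.1% and 8.19% of all genes, both named after their values were seen. Medians of 0.12 and 0.11 were found for the double deletion, where 0 of the 10 were past 1.5-fold.

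The 22 Hap targets stayed near wild type, with medians between −0.023 and 0.052 over the 6 comparisons, of which the one for msp1 RPF was −0.023, and 0.12 with the deposited TPM, which also moved the median of all genes there to 0.161. A single value was past 1.5-fold, that of CYC1, the main cytochrome c. It was −0.60 (−0.66 to −0.55) in RPF of the pex19 deletion, where 1.87% of all genes were lower, and 0.10 in its RNA-seq. COX5A (−0.28), COX4 (−0.27), QCR8 (−0.25) and COX6 (−0.24), named after their values were seen, were also below 0 there. Of the 22 targets, 11 were above 0. Ratios in that RPF library rose with gene length across genes (Spearman 0.206, a description), and the part of length was not tested. The same genes were below 0 in RPF of the msp1 deletion. CYC1 was at −0.361, QCR8 at −0.447, COX6 at −0.294, COX4 at −0.276 and COX5A at −0.195 there. In that comparison 10 of the 22 targets were above 0, and ratios also rose with gene length (Spearman 0.312). ATP1 and ATP2, the large subunits of the ATP synthase head, lay between −0.12 and 0.12 in all 6.

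Of the 13 Oaf1 and Pip2 targets, 8 passed in RPF and 13 in RNA-seq. Their RPF medians were 0.37, −0.03 and 0.46, and their RNA-seq medians −0.02, 0.17 and 0.24, for the msp1, pex19 and double deletions. Where OAF1 RPF was low, in the msp1 deletion, 3 of 8 targets were higher in RPF and 1 of 13 in RNA-seq, against 10.1% and 2.34% of all genes. They were FOX2 (1.08), FAA2 (1.02), a fatty acyl-CoA synthetase, and POT1 (0.83), the peroxisomal thiolase, the last also in RNA-seq (0.59). Ratios in the msp1 RPF library rose with gene length across genes (Spearman 0.312), and the part of length in these values was not tested. Where PIP2 RNA was low, in the pex19 deletion, FAA2 was higher in RPF (0.76), the isomerases ECI1 (0.76) and DCI1 (0.68) were higher in RNA-seq, and POT1 (−1.01) and TES1 were lower, against 2.92% of all genes higher in RPF, and 5.9% higher and 9.13% lower in RNA-seq. The double deletion had 3 higher in each assay, against 1.79% in RPF and 2.72% in RNA-seq, FOX2 and CTA1 in both, FAA2 (0.61) in RPF and DCI1 (0.93) in RNA-seq. Apart from TES1, these were named after their values were seen. PEX11, a peroxisomal division protein, was −0.05 in RPF and 0.50 in RNA-seq of the pex19 deletion, TES1, an acyl-CoA thioesterase, 0.52 and −0.83, and ANT1, the peroxisomal ATP carrier, −0.007 and 0.17.

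Of 9 genes repressed through Mig1, 5 passed in RPF and 8 in RNA-seq. Their RPF medians were 0.20, −0.06 and −0.01, and their RNA-seq medians 0.12, −0.02 and 0.002, for the msp1, pex19 and double deletions. TMM over all listed genes brought the first value to −0.001, with the median of all genes then at −0.185. Where MIG1 RNA was low, in the pex19 deletion, 2 of 8 were lower and 0 higher in RNA-seq, against 9.13% and 5.9% of all genes, and 0 of the 5 were past 1.5-fold in RPF. One was GAL1 (−3.88, on 6 raw reads against 119 in wild type), galactokinase, named after its value was seen. EMI2, a glucokinase relative, was at −0.13 (−0.32 to 0.06) in RPF and −1.08 (−1.26 to −0.91) in RNA-seq there. GAL3, the galactose sensor, was −0.12 in RPF and −0.31 in RNA-seq there, and HXK1, a hexokinase made without glucose, 0.02 and 0.05.

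**Figure D5:**
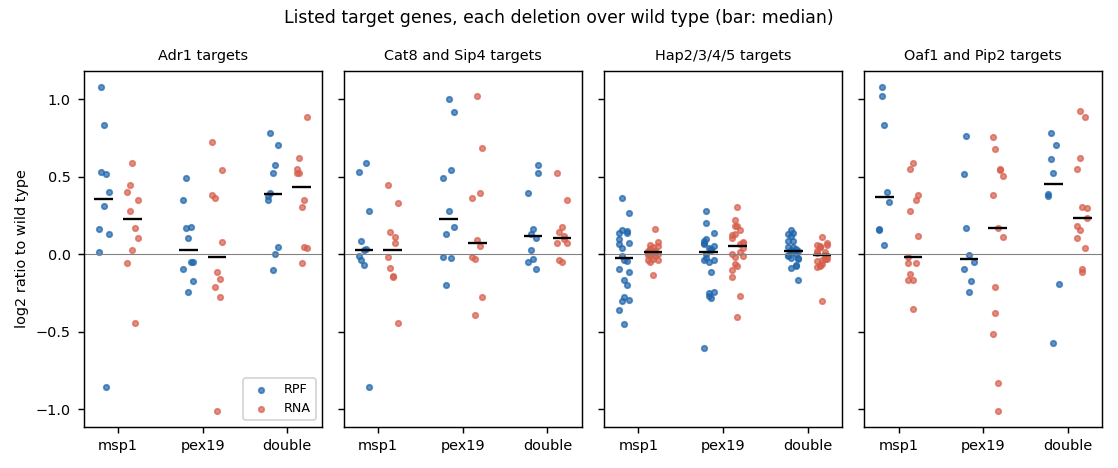
Log2 ratio to wild type of the measured genes of 4 target lists in each deletion (blue RPF, red RNA-seq, 1 point per gene, bars for medians). Adr1 targets lie mostly above 0 in the double deletion (medians 0.39 and 0.44), Hap targets cluster at 0 in all 3 deletions, and the Oaf1 and Pip2 targets spread widely in RNA-seq of the pex19 deletion.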

How the data were processed

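Yeast of 4 genotypes was profiled by RPF sequencing and RNA-seq, 1 library each. The build sacCer3 (R64), cutadapt 1.8 and STAR 2.5 come from the submitters' processing notes. Counting tool and strand use are not given in the sources used here. Whole numbers, at least 1 in every row, fill the authors' deposited read count column per gene, named in the file headers. The authors' deposited TPM, so named in the file headers, are scaled by gene length; their sums over the listed genes differed between libraries (813998 to 997039), so genotypes were compared by counts. The authors' deposited RPM and RPKM columns of 1 file were not used. Blank lines (2 per double deletion file) were dropped.

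Counts were scaled within an assay by TMM (edgeR 4.0.16, R 4.3.3) on genes averaging at least 50 counts. Log2 ratios took 1 read, in proportion to library size, as pseudocount. Intervals are exact 95% (Poisson for levels, Clopper-Pearson on the conditional binomial for ratios); those of translational efficiency ratios add counting variances. Without molecular identifiers, PCR copies are counted as reads, so intervals cover counting error only. RPF fragments measured 19 to 33 nt, per the labels' protocols. The ratio step was tested on simulated data. Copies were sought by blastn 2.17.0 (at least 90% identity over 100 nt). No group has replicates, so no test was run.

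Named genes are the members, the deleted genes, the 3 genes of each list with the highest wild-type RNA TPM, any list gene past 2-fold in both assays, and the 3 nearest patterns; others are said to be named after their values were seen. The members and lists were chosen with earlier results of these data known. Alternatives were other scalings (TMM over all genes, library totals, DESeq2-type size factors), pseudocounts, thresholds, minimums, removal of a length trend, deposited TPM, and 1 read subtracted.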

Additional observations from a re-analysis of the deposited data

Results flagged for a closer look

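For 3 regulators the loss of one gene went with a difference in one direction where the other gene was present and in the opposite direction where it was missing, with both counting intervals off 0. The difference between the backgrounds was not tested, since each value rests on 2 libraries, and the 2 comparisons of a gene together use the same 4 libraries. The share of all genes with such a reversal was not counted, so these reversals do not set the members apart from other genes. Each reversal of MIG1 and HAP4 RNA uses the pex19 RNA-seq library, which listed 783 genes at 1 read. That of SNF4 RPF uses the shallow msp1 RPF library. The parts of these 2 libraries were not tested.

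MIG1 RNA differed by 0.319 (0.146 to 0.494) on loss of PEX19 in the strain without MSP1, against −0.567 (−0.784 to −0.355) in the strain with it. HAP4 RNA differed by 0.101 (0.043 to 0.158) on loss of PEX19 without MSP1, against −0.178 (−0.238 to −0.118) with it. On loss of MSP1 it differed by 0.222 (0.162 to 0.283) without PEX19, against −0.057 (−0.113 to −0.0) with it. By deposited TPM that last value compares 504 in the msp1 deletion with 507 in wild type. SNF4 RPF differed by −0.299 (−0.598 to −0.0) on loss of PEX19 without MSP1, against 0.31 (0.052 to 0.572) with it. Intervals printed as ending at −0.0 were barely off 0, so the reversals that rest on them are borderline. In RPF, MIG1 differed by 0.623 and −0.091 in the same backgrounds and HAP4 by 0.253 and −0.117, and in RNA-seq SNF4 differed by −0.217 and −0.042.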

How the results depend on the processing

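No paired analysis was possible because each genotype has 1 library per assay. Of 480 alternative values of member ratios, 473 stayed inside the counting interval of the value reported. The 7 others were under TMM over all listed genes (ADR1 and HAP4 RPF in the msp1 deletion) or the deposited TPM. Those under TPM were RNA of ADR1 and HAP4 in the pex19 and double deletions and of CAT8 in the pex19 deletion. These settings also moved the median of all genes. In msp1 RPF it became −0.185 and 0.161, against 0.015. With the TPM it became 0.102 in pex19 RNA-seq, against 0, and 0.065 in double RNA-seq, against 0.002.

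Counts past 1.5-fold are small and hang on values at the threshold, so 19 of 120 moved. In msp1 RPF the count of members higher was 1 in place of 0 (SNF4) with library totals, the length trend removed, the deposited TPM or a laxer fold threshold. The count lower there was 1 in place of 2 with library totals, a pseudocount of 5 or the deposited TPM, and 0 at 2-fold. In pex19 RNA-seq 1 member was higher in place of 0 with the deposited TPM or the laxer threshold. The count lower was 2 in place of 1 with library totals or the laxer threshold, and 0 with the length trend removed, with the deposited TPM or at 2-fold. In double RNA-seq the count higher was 1 with the deposited TPM and 2 with the laxer threshold, in place of 0. SIP4 RPF in pex19 and in double was past 1.5-fold under every scaling and pseudocount run. The counts became 0 at 2-fold by scaled reads, while the deposited TPM put the pex19 value at 1.036, past 2-fold. Of 378 alternative list medians 344 stayed within 0.1, among them 41 of the 42 with the length trend removed.

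Depth limits the RPF of SIP4, PIP2 and OAF1, with 24 to 131 reads, most of all in the msp1 deletion.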
